A study of Homo sapiens with 8 samples.

Results

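The mitochondrial ribosomal proteins are the protein subunits of the ribosome inside mitochondria. Genes were taken when the single symbol of a probe set began with MRPL (large subunit) or MRPS (small subunit) followed by a digit, and each gene was read from its brightest probe set. The rule found 77 of the 18239 genes on the array. Of these, 76 code for proteins, 48 of the large and 28 of the small subunit by symbol. The remaining gene, MRPL20-AS1, is an antisense lncRNA and was kept apart, with a log2 difference between mimic and control of 0.09 ± 0.27 (SD over 4 lines, limma adjusted p = 0.689).

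The cells were SAS-L1, HSC2, HSC3 and also Ca9-22, all established human lines of oral squamous cell carcinoma (OSCC). Each line was reverse transfected with RNAiMAX and 20 nM of either a mimic of mature human miR-375 or the non-targeting control mimic miR-NT, and total RNA was taken 48 h after the mimic was added. Each line and condition gave 1 Affymetrix U219 array, 8 in all, so the 4 replicates of a condition were 4 different lines and no line was measured again with the same mimic. The values are log2 signals computed by RMA, which do not give copies per cell, and signals of different probe sets are not comparable as amounts.

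Mitochondrial ribosomes translate the few messenger RNAs that mitochondrial DNA encodes, all of them for subunits of the oxidative phosphorylation complexes. Their ribosomal RNAs come from mitochondrial DNA, whereas all of their proteins are encoded in the nucleus, made in the cytosol and imported. Many of the proteins descend from those of bacterial ribosomes and others were added in the mitochondrial lineage.

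The introduced strand is shown because its seed, bases 2 to 8 in capitals, is the part by which a miRNA mainly recognizes its targets. The sequence is RefSeq's mature miRNA, chr2:219001648-219001669 on the minus strand of GRCh38.p14.
hsa-miR-375-3p: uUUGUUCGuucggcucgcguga

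The array medians lay between 4.96 and 5.00. Of the 76 genes, 75 had a mean signal above that of the median gene and 0 were among the dimmest 40% of genes. A total of 17 genes were read from a probe set of the _x_at or _s_at type, which can bind related transcripts, among them MRPL1 and MRPS35 of the genes that passed the test below. As a check of the mimic, YAP1, MTDH, LDHB and QKI, named from among reported miR-375 targets, fell by 3.74-fold to 6.21-fold. Other reported targets are not given here. The 9 measured epithelial and squamous markers were all above the dimmest 40% of genes on the mean of the arrays, although KRT14 was below that limit, 4.95, in SAS-L1 (4.61 and 4.05) and Ca9-22 (4.28 and 4.21). KRT5 of the same list fell by 3.32-fold with the mimic (limma adjusted p = 0.0320, 0.0201 to 0.0959 with a line left out). In contrast, 5 of 6 fibroblast markers and 6 of 7 immune and endothelial markers lay within it. In bulk RNA, fewer cells with a transcript and less transcript per cell cannot be told apart.

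The first comparison asked which subunit genes differed between the mimic and miR-NT. With the miR-375 mimic, 6 of 76 genes fell and 7 rose, and 63 did not pass the test (limma blocked by cell line, adjusted p under 0.05 over all genes). Of all genes tested, 5.19% fell and 7.36% rose, compared with 7.89% and 9.21% of the mitochondrial ribosomal protein genes. Among the genes outside the dimmest 40%, the shares were 8.51% and 11.8%. In both directions the shares of the subunit genes were above those of all genes and below those of the brighter genes. All 13 genes that passed moved the same way in all 4 lines. The test itself favors this, as it sets the mean difference against its spread over the lines. Only MRPL44, which fell, and MRPS14, which rose, passed with each line left out in turn, and without the block for cell line 0 of 76 genes passed.

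**Figure D1:**
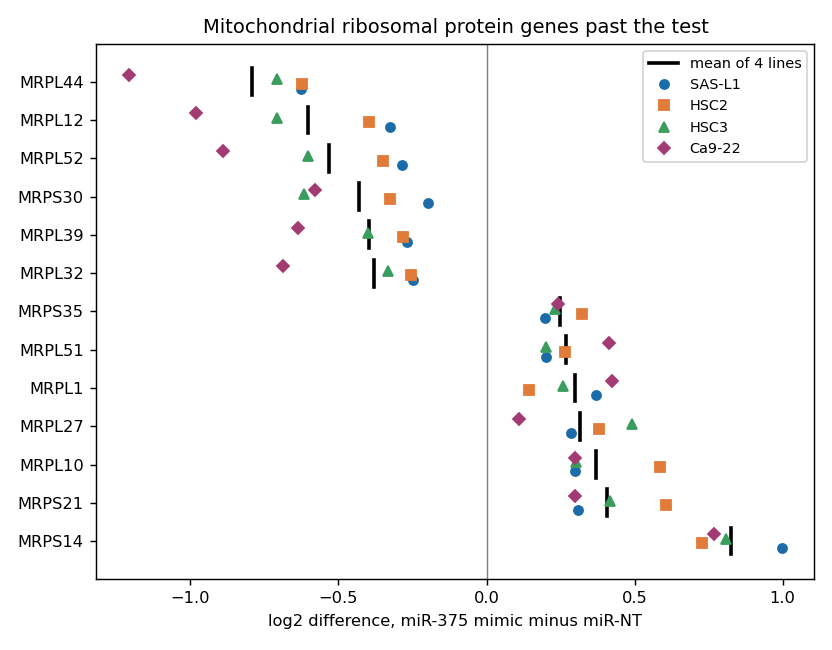
Log2 difference between miR-375 mimic and miR-NT (horizontal axis) of the 13 mitochondrial ribosomal protein genes that passed the limma test, with 1 symbol per cell line and a bar at the mean of the 4 lines. The means run from -0.79 for MRPL44 to 0.83 for MRPS14, and Ca9-22 had the largest fall for 5 of the 6 genes that fell.

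MRPL44, a large subunit protein with an RNase III-like fold that has no counterpart in bacterial ribosomes, had the largest fall. Its log2 signal went from 8.56 to 7.94 in SAS-L1, from 7.91 to 7.28 in HSC2, from 7.68 to 6.98 in HSC3 and from 7.58 to 6.38 in Ca9-22. The mean log2 difference was -0.79 ± 0.28 (SD over 4 lines), 1.73-fold lower (limma adjusted p = 0.0110). Every line was lower with the mimic, but the groups overlapped, and SAS-L1 had the highest signal in both conditions. With a line left out, the adjusted p lay between 0.0224 and 0.0478.

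MRPL12 is the subunit of the flexible stalk that recruits translation factors, and it has also been reported to bind the mitochondrial RNA polymerase. Its log2 signal went from 9.26 to 8.94 in SAS-L1, from 8.52 to 8.12 in HSC2, from 8.78 to 8.07 in HSC3 and from 8.99 to 8.01 in Ca9-22. The mean log2 difference was -0.60 ± 0.30 (SD over 4 lines), 1.52-fold lower (limma adjusted p = 0.0255). The mimic arrays of HSC2, HSC3 and Ca9-22 lay close together and SAS-L1 stood above them. Without SAS-L1 the adjusted p was 0.0346, whereas without HSC2, HSC3 or Ca9-22 it was 0.0695, 0.0814 and 0.0570. MRPL10, which anchors the copies of MRPL12 at the base of the stalk, rose. Its log2 signal went from 8.22 to 8.52 in SAS-L1, from 7.63 to 8.22 in HSC2, from 7.96 to 8.26 in HSC3 and from 8.67 to 8.97 in Ca9-22. The rise of 0.37 ± 0.14 (SD over 4 lines), 1.29-fold (limma adjusted p = 0.0265), was nearly equal in SAS-L1, HSC3 and Ca9-22 and larger in HSC2. It did not pass with any line left out, at adjusted p of 0.0601 to 0.0802. The stalk genes thus went both ways: MRPL11, which lies at the base of the stalk, was higher in all 4 lines by a mean of 0.23 but did not pass (adjusted p = 0.0998).

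**Figure D2:**
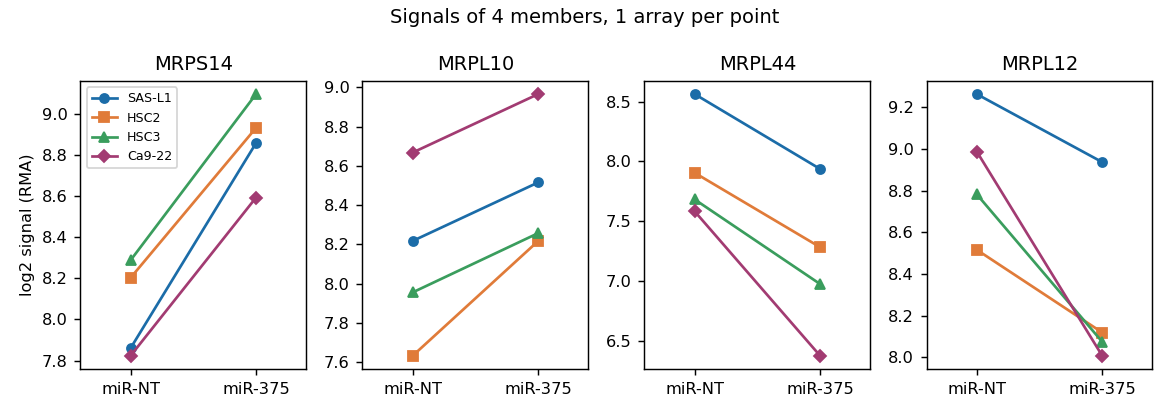
Log2 RMA signal (vertical axis, own scale in each panel) of MRPS14, MRPL10, MRPL44 and MRPL12 in the miR-NT and miR-375 array of each line, with a line joining the arrays of a cell line. The MRPS14 signals of the mimic arrays, 8.59 to 9.10, lie above all miR-NT signals, 7.82 to 8.29, whereas the groups overlap for the others.

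MRPL52, MRPL39 and MRPL32 also fell in the large subunit. MRPL52 and MRPL39 have no counterpart in bacterial ribosomes, and MRPL32 corresponds to bacterial L32. The log2 signal of MRPL52 went from 9.82 to 9.53 in SAS-L1, from 9.16 to 8.81 in HSC2, from 9.55 to 8.95 in HSC3 and from 8.79 to 7.90 in Ca9-22. Its mean log2 difference was -0.53 ± 0.28, 1.45-fold lower (limma adjusted p = 0.0297). That of MRPL39 was -0.40 ± 0.17, 1.32-fold lower (adjusted p = 0.0280), and the differences ran from -0.27 in SAS-L1 to -0.64 in Ca9-22. For MRPL32 the mean was -0.38 ± 0.21, 1.30-fold lower (adjusted p = 0.0451), from -0.25 in SAS-L1 to -0.69 in Ca9-22. In each of these genes Ca9-22 had the largest fall and SAS-L1 the smallest. MRPL52 passed without SAS-L1 (adjusted p = 0.0415) and not without another line (0.0633 to 0.0925). MRPL39 and MRPL32 did not pass with any line left out, at 0.0528 to 0.0843 and 0.0760 to 0.108.

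MRPS30 carries a small subunit symbol, but structures of the mammalian ribosome place it in the large subunit. It was the only MRPS gene that fell. With the mimic its log2 signal went from 9.62 to 9.42 in SAS-L1, from 9.11 to 8.78 in HSC2, from 9.01 to 8.40 in HSC3 and from 8.93 to 8.35 in Ca9-22. The mean log2 difference was -0.43 ± 0.20, 1.35-fold lower (limma adjusted p = 0.0294). It passed without SAS-L1 (adjusted p = 0.0333) and not without HSC2 (0.0876), HSC3 (0.0923) or Ca9-22 (0.0980). All 6 genes that fell therefore code for proteins found in the large subunit. By symbol, that subunit holds 48 of the 76 genes, and 4 of these rose. Falls made up 7.89% of the 76 genes, 5.19% of all genes and 8.51% of the brighter ones. Whether the falls favor a subunit was not tested.

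Promoter pieces of MRPL52 and MRPL32 are shown because both genes fell and both hold AAGATGGCG, the core of the motif of the transcription factor YY1, or its reverse complement. The motif was also in 10 of 56 promoters of genes that did not pass the test. The pieces are 30 bases of RefSeq promoters (GRCh38.p14), 5′ to 3′ along the gene's strand, with the motif in capitals. Those of MRPL52 lie at chr14:22829779-22829808 and chr14:22829813-22829842 on the plus strand, with the motif's first base 98 and 64 bases before the start. That of MRPL32 lies at chr7:42932143-42932172 on the plus strand, 223 bases before the start and with the motif on the opposite strand.
MRPL52, first piece: acgatgacccAAGATGGCGgagccgtgatt
MRPL52, second piece: acccagattcAAGATGGCGacttcctgctt
MRPL32: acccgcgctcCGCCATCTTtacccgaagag

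The genes of the small subunit that passed, other than MRPS30, rose. MRPS14, a protein of the head of the small subunit with a bacterial counterpart, had the largest rise. Its signals went on the log2 scale from 7.86 to 8.86 in SAS-L1, from 8.20 to 8.93 in HSC2, from 8.29 to 9.10 in HSC3 and from 7.82 to 8.59 in Ca9-22. The mean log2 difference was 0.83 ± 0.12 (SD over 4 lines), 1.77-fold higher (limma adjusted p = 0.00429), and the adjusted p stayed between 0.00964 and 0.0297 with a line left out. Every mimic array was above every miR-NT array. This held for 2 of the 76 genes, MRPS14 and MRPL27, compared with 1.94% of all genes. In the opposite direction it held for 0 of the 76 genes and for 1.94% of all genes.

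MRPS21 corresponds to bacterial S21, and MRPS35 has no bacterial counterpart. The log2 signal of MRPS21 went from 9.69 to 10.00 in SAS-L1, from 9.20 to 9.81 in HSC2, from 9.80 to 10.22 in HSC3 and from 9.01 to 9.30 in Ca9-22. Its mean log2 difference was 0.41 ± 0.14, 1.33-fold higher (limma adjusted p = 0.0208). That of MRPS35 was 0.25 ± 0.05, 1.19-fold higher (adjusted p = 0.0418), with 0.20 to 0.32 in the single lines. The rise of MRPS35 was small and even. MRPS21 passed without SAS-L1 (0.0454) and without Ca9-22 (0.0499) but not without HSC2 (0.0704) or HSC3 (0.0665). MRPS35 did not pass with any line left out (0.0908 to 0.144).

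In the large subunit, MRPL27, MRPL1 and MRPL51 rose beside MRPL10. MRPL27 corresponds to bacterial L27, which reaches the site of peptide bond formation. Its log2 signal went from 9.53 to 9.82 in SAS-L1, from 9.19 to 9.57 in HSC2, from 9.20 to 9.69 in HSC3 and from 9.43 to 9.54 in Ca9-22. The mean log2 difference was 0.32 ± 0.16, 1.25-fold higher, and lay at the threshold (limma adjusted p = 0.0499). MRPL1, which corresponds to the protein of the mobile L1 stalk in bacteria, differed by 0.30 ± 0.13, 1.23-fold higher (adjusted p = 0.0423). MRPL51, specific to mitochondria, differed by 0.27 ± 0.10, 1.21-fold higher (adjusted p = 0.0458). The lines ran from 0.14 to 0.42 for MRPL1 and from 0.20 to 0.41 for MRPL51. These rises did not pass with any line left out, at adjusted p of 0.0514 to 0.171 for MRPL27, 0.0714 to 0.127 for MRPL1 and 0.0905 to 0.139 for MRPL51. With each array's median subtracted, MRPL1, MRPL27, MRPL51 and MRPS35 no longer passed, and 3 genes rose. MRPL1 and MRPS35 also missed the threshold with a mean trend in the variance (0.0612 and 0.0784), and MRPL51 after quantile normalization (0.0547).

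Promoter pieces of MRPL27 and MRPL51 are shown because both genes rose and hold CCGGAAG, the core motif of the ETS factors, to which GABPA belongs. The promoter of MRPL52, which fell, also holds this motif, as do 24 of 56 promoters of genes that did not pass. The piece of MRPL27 lies at chr17:50373218-50373247 on the minus strand, with the motif's first base 52 bases before the start. That of MRPL51 lies at chr12:6493348-6493377 on the minus strand, 104 bases before the start. Build, direction and capitals are as for MRPL52.
MRPL27: ccacgcagggcCCGGAAGtagatctcctga
MRPL51: cggcaggcggaCCGGAAGcactgaggcggg

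Of the 48 large subunit genes, 5 fell, 4 rose and 39 did not pass, compared with 1, 3 and 24 of the 28 small subunit genes. These are 10.4% falls and 8.33% rises in the large and 3.57% and 10.7% in the small subunit, beside 5.19% and 7.36% of all genes and 8.51% and 11.8% of the brighter ones. The call counts were small, and the difference between the subunits was not tested. The median log2 difference was 0.06 for the large and 0.00 for the small subunit, 0.04 for both together and 0.03 for all genes. The difference between the subunit medians was 0.06, with an SD over the 4 lines of 0.0816, so it was within the spread between lines. With each array's median subtracted, the small subunit median was -0.05 and the large subunit median 0.00. Placing MRPS18A and MRPS30 in the large subunit gave 0.05 and 0.00.

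The medians differed more between lines than between subunits. In HSC2 the median log2 difference was 0.15 for the large and 0.20 for the small subunit, beside 0.02 for all genes. In Ca9-22 it was 0.03 and -0.09, beside 0.05. HSC2 had 62 of 76 genes above miR-NT, compared with 53.9% of all genes. The other lines had fewer, 45 of 76 in SAS-L1 (52.3% of all genes), 33 of 76 in HSC3 (57.3%) and 37 of 76 in Ca9-22 (61.6%). The differences of the 76 genes correlated between lines at Pearson's r of 0.605 to 0.790, as a description over genes, which are not independent replicates. Over all genes r was 0.522 to 0.652.

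**Figure D3:**
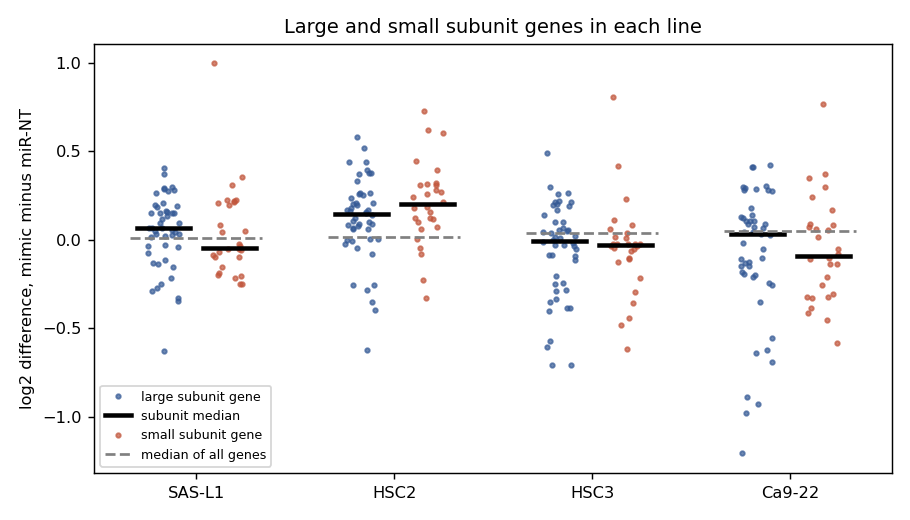
Log2 difference between miR-375 mimic and miR-NT (vertical axis) of the 48 large and 28 small subunit genes in each line, 1 point per gene, with the subunit medians and the median of all genes as a dashed line. Both subunit medians lie above that of all genes in HSC2 (0.15 and 0.20 against 0.02), and MRPS14 is the highest small subunit point in every line.

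A lower signal in all 4 lines was seen for 10 genes, 13.2%, compared with 11.9% of all genes and 16.2% of the brighter ones. A higher signal in all 4 lines was seen for 18, 23.7%, compared with 20.9% and 27.7%. In both directions the share was above that of all genes and below that of the brighter genes. In the large subunit 7 genes were lower and 14 higher in all lines, and in the small subunit 3 and 4. Mean log2 differences of the 63 genes that did not pass ran from -0.48 to 0.29. A difference within 0.1 of 0 was found for 35 of the 76 genes, 46.1%, and for 52.3% of all genes. The median size of the difference was 0.110 for the 76 genes, 0.0928 for all genes and 0.168 for the brighter ones. At an unadjusted p under 0.05 stood 24 of the 76 genes, 31.6%, compared with 26.3% of all genes and 40.3% of the brighter ones. A fall over 1.5-fold was reached by MRPL44 and MRPL12, 2 genes (3.23% of all genes), and a rise of that size by MRPS14 alone (2.42%). Of the 10943 brighter genes, 579 were lower and 416 higher by that much.

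By evolutionary origin, 2 of 30 large subunit genes with a bacterial counterpart fell and 3 rose, with a median log2 difference of 0.05. Of the 18 measured large subunit genes specific to mitochondria, 3 fell and 1 rose, with a median of 0.09. In the small subunit, 2 of 17 genes with a bacterial counterpart rose and 0 fell, and 1 of 9 specific genes rose and 0 fell. The background is the same 5.19% falls and 7.36% rises of all genes, 8.51% and 11.8% of the brighter ones, and no difference of these groups from it was tested. By position, the 5 genes around the exit of the peptide tunnel had 0 calls and lay between -0.06 and 0.19. Of the 7 genes of the central protuberance, which faces the small subunit, MRPL27 rose.

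MRPL58, also placed in the central protuberance and known as a peptidyl-tRNA hydrolase that frees stalled ribosomes, was just outside the threshold. The log2 signal went from 7.74 to 7.39 in SAS-L1, from 7.39 to 7.13 in HSC2, from 7.25 to 6.86 in HSC3 and from 8.44 to 7.51 in Ca9-22. The mean log2 difference was -0.48 ± 0.30, 1.39-fold lower (limma adjusted p = 0.0502). It was lower in 4 of 4 lines, with a difference in Ca9-22 of -0.93 against -0.26 to -0.39 elsewhere. The adjusted p was 0.0388 with array medians subtracted and 0.0370 after quantile normalization.

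MRPL42, MRPL13 and MRPL24 were among the 4 genes whose mimic differences spread most between lines, and they did not pass the test. On the log2 scale, MRPL42 differed in SAS-L1 by 0.15 and in HSC2 by 0.01, whereas HSC3 and Ca9-22 gave -0.57 and -0.55. MRPL13 had the same split, at 0.10, -0.01, -0.38 and -0.62. MRPL24, which corresponds to bacterial L24 near the tunnel exit, was lower in HSC3 at -0.35 and higher in SAS-L1 at 0.40, in HSC2 at 0.25 and in Ca9-22 at 0.09. Whether these differences themselves differed between lines could not be tested with 1 array for each line and condition.

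The second comparison asked how the subunit genes differed between the lines, using both arrays of a line as its replicates. These are separate transfections with different mimics of the same line, so the p-values measure that spread. Signals differed between lines for 62 of 76 genes (limma F-test, adjusted p under 0.05), 38 of 48 in the large and 24 of 28 in the small subunit. The share was 81.6%, compared with 42.7% of all genes and 62.7% of genes outside the dimmest 40%. Over the 4 miR-NT arrays, the median range of a gene's log2 signal was 0.71 for the 76 genes, 0.42 for all genes and 0.70 for the brighter genes.

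SAS-L1 was above the mean of the other lines for 33 of 76 genes and below it for 4 (12.8% and 13% of all genes, 19.2% and 19.3% of the brighter ones). The median log2 difference from the other lines was 0.26. HSC2 was above for 8 and below for 23 (11.9% and 11.1% of all genes, 17.1% and 17% of the brighter ones), with a median of -0.10. HSC3 was above for 16 and below for 17 (11.4% and 12.8% of all genes, 17.3% and 18.3% of the brighter ones). Ca9-22 was above for 20 and below for 19 (14.4% and 11.4%, 20.7% and 17%). SAS-L1 also had the highest of the 4 miR-NT signals for 31 genes, 40.8%, compared with 25.9% of all genes. HSC2 had the lowest for 31, also 40.8%, compared with 22.4% of all genes. The same HSC2 array is subtracted in the mimic differences, where 62 of 76 genes were above miR-NT, so these counts are not independent. The count of genes higher in SAS-L1 was 30 to 37 under the other normalizations and probe set rules and 29 to 33 with another line left out.

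**Figure D4:**
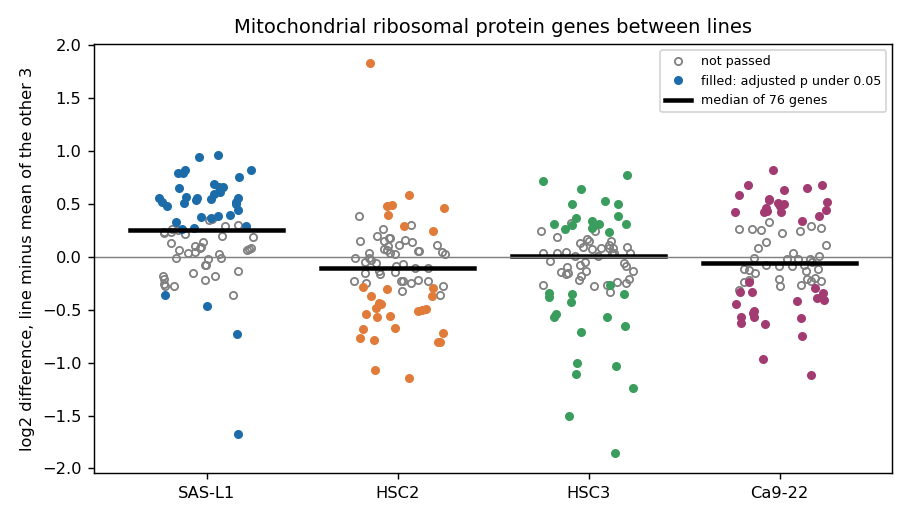
Log2 signal of each line minus the mean of the other 3 lines (vertical axis) for the 76 genes, 1 point per gene, filled where limma's adjusted p was under 0.05, with the median as a bar. The median lies at 0.26 in SAS-L1 and at -0.10 in HSC2, and the points farthest from 0 are MRPL9 in HSC3 (-1.86) and MRPS17 in HSC2 (1.83).

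MRPL9, which corresponds to bacterial L9, had the largest F for line. SAS-L1 had log2 signals of 9.75 with miR-NT and 9.77 with the mimic, HSC2 of 9.31 and 9.39, HSC3 of 7.79 and 7.76, and Ca9-22 of 9.74 and 9.83. HSC3 alone was low, by -1.86 (limma adjusted p = 9.67e-05). MRPS17, which corresponds to bacterial S17, was spread over all lines, with 8.45 and 8.20 in SAS-L1, 10.84 and 11.08 in HSC2, 9.07 and 9.13 in HSC3, and 9.92 and 9.99 in Ca9-22 (miR-NT first). SAS-L1 was lower by -1.68 (adjusted p = 0.000262) and HSC2 higher by 1.83 (adjusted p = 0.000249). MRPS17 thus lay on the other side of 0 from the median of the 76 genes in both lines, as did MRPL40, MRPL41 and MRPS18B in SAS-L1 and 7 further genes in HSC2 among those that passed.

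MRPL2, which corresponds to bacterial L2 of the peptidyl transferase center, was low in HSC3, at 4.02 and 3.94, and between 5.36 and 5.61 in the other arrays. HSC3 was below the mean of the other lines (limma adjusted p = 0.000207). Its signals were close to the lower quartile of all probe sets, 3.88, where RMA signals understate differences. MRPL21 was low in HSC2, at 9.03 and 9.24, and at 10.07 to 10.48 elsewhere, a difference of -1.07 (adjusted p = 0.000396). The genes most above the other lines in SAS-L1 included MRPL42 (0.97, adjusted p = 0.00757) and MRPL44 (0.95, adjusted p = 0.00339).

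Promoters of 68 of the 76 genes were matched in RefSeq, each from 250 bases before to 50 bases after the first listed start, and searched on both strands. The ETS motif CCGGAAG was present in 28 of 68, 41.2%, compared with 10.7% of all 27305 promoters. These 27305 were not limited to genes of the array or to the brighter ones, and shares among such genes were not computed. The YY1 motif AAGATGGCG was present in 13 of 68, 19.1%, compared with 1.85%. The NRF1 motif (GCGCA, any base, GCGC) was present in 8 of 68, 11.8%, compared with 6.29%, and the E-box CACGTG bound by MYC in 6 of 68, 8.82%, compared with 7.44%. Divided by call, the YY1 motif was in 3 of 6 promoters of genes that fell, 0 of 6 of genes that rose and 10 of 56 of the others. The ETS motif was in 1 of 6, 3 of 6 and 24 of 56. The promoters of MRPL44, MRPL12, MRPL39, MRPL1, MRPS14 and MRPS35 held none of these letters. A match describes the sequence and is not a binding site.

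Genes that work with the mitochondrial ribosome were read in the same test from lists. Of 83 measured genes, 16 fell, all of them lower in 4 of 4 lines, and 3 rose, 19.3% and 3.61% of the lists. As for the subunit genes, the test itself favors such agreement between lines. The shares were 5.19% and 7.36% for all genes and 8.51% and 11.8% for the brighter ones, and the median miR-NT signal was 7.27 for the lists and 5.52 for all genes. The median log2 difference over the lists was 0.03, equal to that of all genes. Of the 19 genes that passed, EARS2, FARS2, METTL15, TFAM and TWNK did so with each line left out in turn.

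Of 4 measured ribosomal proteins without an MRP symbol, PTCD3 of the small subunit fell by 1.34-fold (log2 difference -0.42 ± 0.24, limma adjusted p = 0.0435). DAP3 differed by 0.03 (adjusted p = 0.870) and GADD45GIP1 by 0.15 (adjusted p = 0.215). Of 15 translation factors, 5 fell and 1 rose, 33.3% and 6.67%, beside 8.51% and 11.8% of the brighter genes. No list was tested as a set. The initiation factor MTIF2 differed by -0.63 ± 0.26 (adjusted p = 0.0171), and LRPPRC, which stabilizes mitochondrial messenger RNAs, by -0.41 ± 0.11 (adjusted p = 0.0158). MTRF1L, a release factor, rose by 0.45 ± 0.15 (adjusted p = 0.0168). Of 19 genes that load mitochondrial tRNAs, 5 fell (26.3%) and 0 rose. The largest of these falls was that of FARS2, the phenylalanine synthetase, at -0.52 ± 0.08 (adjusted p = 0.00701). GATC differed by -0.51 ± 0.13 (adjusted p = 0.00998) and EARS2 by -0.39 ± 0.07 (adjusted p = 0.0125). Averaged over their probe sets, PTCD3 and EARS2 did not pass (0.225 and 0.0796).

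Of 25 genes of ribosome assembly and rRNA modification, 2 fell and 2 rose, 8% each, beside 8.51% and 11.8% of the brighter genes. RPUSD4, a pseudouridine synthase, differed by -0.49 ± 0.12 (limma adjusted p = 0.0108), METTL15, a methyltransferase of the small subunit rRNA, by -0.47 ± 0.13 (adjusted p = 0.0131) and YBEY, an endoribonuclease, by 0.33 ± 0.10 (adjusted p = 0.0268). On the mean of its probe sets METTL15 differed by -0.09 (adjusted p = 0.613). Of 10 genes that transcribe and copy mitochondrial DNA, TFAM and TWNK fell (20%). TFAM packages mitochondrial DNA and starts its transcription, and TWNK is the helicase of its replication. For TFAM, SAS-L1 differed by -0.71, HSC2 by -0.83, HSC3 by -1.44 and Ca9-22 by -1.32, with a mean of -1.08 ± 0.36, 2.11-fold lower (adjusted p = 0.00838). TWNK was even over the lines at -0.72 ± 0.07 (adjusted p = 0.00429). TEFM, a transcription elongation factor, differed by 0.23 and did not pass (adjusted p = 0.0991).

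Of 10 transcription factors of mitochondrial genes, GABPA fell. SAS-L1 differed by -0.37, HSC2 by -0.51, HSC3 by -0.68 and Ca9-22 by -0.79, with a mean of -0.59 ± 0.19 (limma adjusted p = 0.0115). Without HSC2 its adjusted p was 0.0527. MYC differed by -0.77 ± 0.62 and did not pass (adjusted p = 0.0763), although it did without SAS-L1 (0.0431). ESRRA differed by 0.33 (adjusted p = 0.0764).

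**Figure D5:**
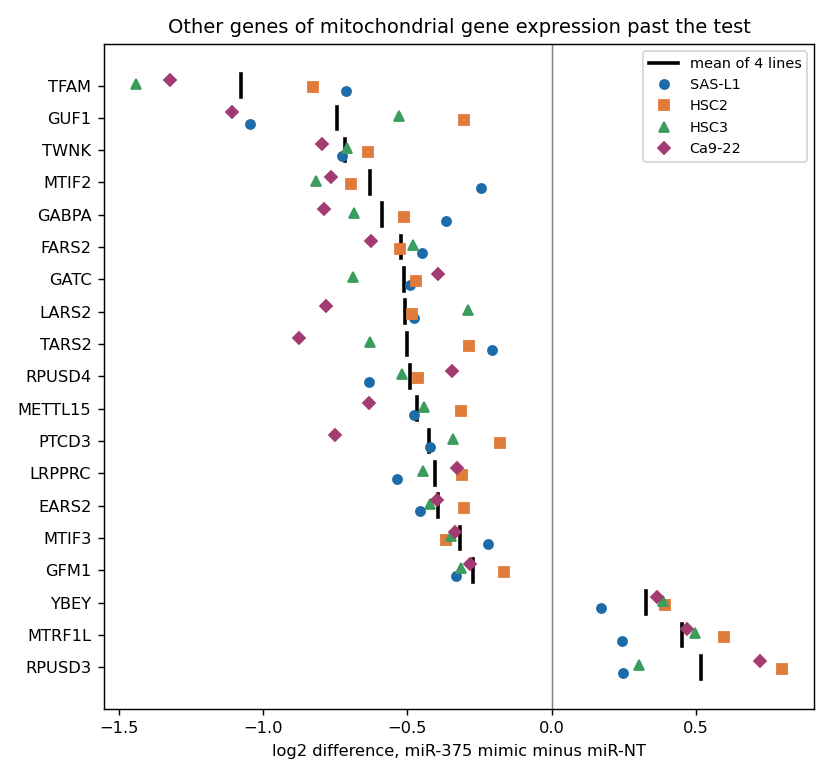
Log2 difference between miR-375 mimic and miR-NT (horizontal axis) of the 19 genes from the related lists that passed the limma test, with 1 symbol per cell line and a bar at the mean of the 4 lines. The 16 genes that fell run up to a mean of -1.08 for TFAM, and every symbol of these genes lies below 0, which the test favors.

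The proteins of the cytosolic ribosome were read in the same way. Their median miR-NT signal was 12.2 on the log2 scale, near the top of the table's scale, and that of the mitochondrial genes was 8.89. The symbol rule matched 68 genes, including RPS19BP1, which codes for a binding protein and not a subunit. RPS19BP1 rose by 0.42 ± 0.17 (limma adjusted p = 0.0237). Of the other 67, 0 passed in limma. Of the 68 genes, RPS19BP1 included, 6 stood at an unadjusted p under 0.05. That was 8.82%, compared with 26.3% of all genes and 40.3% of the brighter ones. Of the 68, 3 fell under limma's model with a mean trend and 3 rose on probe set means. RPL35A differed by -0.55 ± 0.39 (adjusted p = 0.0614) and RPL23 by -0.26 (adjusted p = 0.0830). The median size of the log2 difference was 0.0594 for the cytosolic and 0.110 for the mitochondrial genes. It was 0.0928 for all genes and 0.168 for the brighter ones, so the mitochondrial genes lay between these. Between lines, 27 of 68 cytosolic genes differed, 39.7%, compared with 62 of 76 mitochondrial genes. The difference between these families was not tested, nor was the part of the higher signals of the cytosolic genes in their smaller differences.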

How the data were processed

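The authors made biotin-labeled cRNA from total RNA, hybridized the cRNA to Affymetrix U219 arrays and summarized 49386 probe sets by RMA in GeneSpring. The deposited values are log2 signals. Symbols from the platform annotation were updated by gene identifier through RefSeq (GRCh38.p14), which matched 45178 of 45259 probe sets with 1 symbol. The probe set of MRPL53 carried several symbols and was not analysed here.

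Tests used lmFit and eBayes of limma 3.58.1 in R 4.3.3, with the cell line as a block for the mimic and the condition as a covariate for the lines. P-values were adjusted by Benjamini-Hochberg over 18239 genes, at 0.05. The line pairs the arrays: deviations from the condition mean correlated at 0.836 to 0.886 within lines and at -0.107 or less between them. Taking out a mean over the 4 lines itself lowers the correlations between lines, so only those within lines bear on the pairing. The fit was tested on simulated data.

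The members, lists, roles and naming rule were chosen with earlier results of these data known. Named were all members that passed, the 4 with the widest range over lines, the 4 with the largest F for line, up to 4 whose probe sets disagreed, and the 3 smallest p of each related list. MRPL11, MRPL40, MRPL41, MRPS18A, MRPS18B, KRT5 and KRT14 were named outside this rule, with their values seen. So were YAP1, MTDH, LDHB and QKI, the check of the mimic. The fit was repeated without the cell line, without 1 line at a time, without 7296 dim genes, with array medians subtracted, after quantile normalization, on probe set means and with a mean trend in the variance. The methods' t-test and a 1.5-fold threshold were also applied. No probe set named a gene of mitochondrial DNA, and those genes were not analysed here. The number of arrays limits the precision.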

Additional observations from a re-analysis of the deposited data

Results flagged for a closer look

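Of 74 groups of 4 values examined, 7 held a value far from the other 3. Chance alone gives about 5% for unselected, independent groups. Some of these genes were named for their spread between lines, and the groups of a gene share the same lines. The count therefore cannot be set against that share. The MRPL12 signal of the mimic array of SAS-L1 was 8.94 on the log2 scale, against 8.01 to 8.12 in the other lines. The MRPL39 signal of the miR-NT array of Ca9-22 was 9.11, against 8.38 to 8.48. The mimic difference of MRPL44 was -1.21 in Ca9-22, against -0.71 to -0.62, and that of MRPL10 was 0.58 in HSC2, against 0.30 in each of the others. MRPL2 was low in HSC3 on both arrays, with 4.02 under miR-NT (5.36 to 5.61 elsewhere) and 3.94 under the mimic (5.44 to 5.51 elsewhere). The MRPL57 signal of the miR-NT array of Ca9-22 was 9.03, against 10.1 to 10.3.

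The subunit medians of the mimic difference lay on opposite sides of 0 in some lines. The large subunit median was 0.15 in HSC2 and -0.01 in HSC3, a gap of 0.15. The small subunit median was 0.20 in HSC2 and below 0 in the other 3 lines, down to -0.09 in Ca9-22, a gap of 0.29. With 1 array for each line and condition, these differences between lines were not tested.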

How the results depend on the processing

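Without the block for cell line, which leaves the pairing out, 0 subunit genes fell, 0 rose (4 had an unadjusted p under 0.05), and 0 related genes fell and 0 rose, compared with 6, 7, 16 and 3. The methods' t-test gave 0 falls and 0 rises after adjustment, with 2 subunit genes at an unadjusted p under 0.05. A 1.5-fold threshold gave 2 falls and 1 rise. Subtracting array medians left 3 rises. Leaving out a line, which also leaves fewer arrays, gave 1 to 4 falls and 1 to 2 rises among subunit genes, and 6 to 13 falls and 0 to 3 rises among related genes. The other fits kept these counts within 1.5 times, and no result changed direction. The counts of genes that differed between lines, 62, and that were higher in SAS-L1, 33, stayed within 1.5 times under every setting run. The causes were not tested.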

Other observations

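Probe sets of the same gene disagreed in call for 10 subunit genes. For MRPL19, the brightest probe set differed by -0.11 ± 0.10 on the log2 scale (limma adjusted p = 0.392 over all probe sets), whereas a dimmer one differed by -1.27 ± 0.21 (adjusted p = 0.00386) and was lower in 4 of 4 lines. Their mean miR-NT signals were 9.53 and 6.77. For MRPS14, a second probe set also rose (0.70, adjusted p = 0.00782), while the third, at a mean signal of 4.80, differed by 0.04 (adjusted p = 0.752). For MRPL57, the brightest probe set differed by 0.12 (adjusted p = 0.370) and 2 dim ones rose by 0.74 (adjusted p = 0.0109) and 0.55 (adjusted p = 0.00873). For MRPS11, the brightest differed by 0.28 (adjusted p = 0.0723) and the next by 0.43 (adjusted p = 0.0325). MRPL52 and MRPS35, which passed the main test, were also among the 10 genes. For MRPL52, 4 of 5 probe sets fell, and the dimmest differed by -0.23 (adjusted p = 0.0617). For MRPS35, the brightest differed by 0.25 (adjusted p = 0.0452) and the other by 0.27 (adjusted p = 0.0567). Which transcripts each probe set binds was not tested.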
